A study of Mus musculus with 8 samples.

Results

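The transfer RNAs (tRNAs) for glycine, serine, threonine and proline were described in a small RNA sequencing table of immortalized mouse skin fibroblasts. A feature was included when the table typed it as a genomic tRNA and the amino acid in its name was Gly, Ser, Thr or Pro, a choice that uses no measured value. This gave 87 of the 2403 features in the table and 87 of its 423 genomic tRNAs, namely 29 for glycine, 23 for serine, 17 for threonine and 18 for proline, with 15 anticodons between them. Each feature is 1 gene copy, named by chromosome, number, amino acid and anticodon, so that chr13.tRNA77-GlyGCC is a glycine tRNA with the anticodon GCC.

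Cells came from mir210 lox/lox mice titled KO, or from C57BL/6 mice titled WT, and were kept for 24 h in hypoxia (1% O2) or in normoxia (21% O2). The 4 groups were KO hypoxia, KO normoxia, WT hypoxia and WT normoxia, with 2 libraries each, numbered 1 and 2. Total RNA was made into small RNA libraries for SOLiD sequencing. The genotype label gives a floxed allele and does not itself state a deletion, and the labels do not tell whether the libraries of each group stem from different cultures. The p-values therefore reflect the variation among these libraries, which may be technical. The targeted microRNA follows the titles. miR-210-3p had 10 and 32 normalized reads in KO hypoxia and 23 and 14 in KO normoxia, against 36738 and 39011 in WT hypoxia and 4786 and 8676 in WT normoxia.

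The values are read counts normalized by the authors and rounded to whole numbers. They summed to between 8618630 and 12167438 per library, of which microRNAs held 73.0% to 82.0% and genomic tRNAs 6.49% to 10.97%. The libraries were not alike in make-up. In each of the 4 groups library 1 had the larger share of small nucleolar RNA and the smaller share of microRNA. Small nucleolar RNA took 8.57% to 9.99% of the libraries numbered 1, against 6.93% to 7.57% of those numbered 2. Ribosomal RNA took 5.76% of KO hypoxia library 1, against 1.69% to 2.88% of the 7 other libraries, and genomic tRNAs took 10.01% and 7.60% in KO hypoxia and 9.59% and 10.97% in KO normoxia, against 7.49% and 6.49% in WT hypoxia and 7.14% and 7.74% in WT normoxia. All 8 fibroblast and mesenchymal microRNA markers were detected and summed to at least 3436322 in every library. The other marker lists summed to 100 to 290 for epithelium (5 of 7 detected), 841 to 3078 for blood cells (4 of 5, with miR-142 not detected), 102 to 191 for endothelium (1 of 1), 116 to 300 for muscle (2 of 4) and 175 to 439 for neural cells and melanocytes (1 of 3).

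A tRNA carries its amino acid to the ribosome and pairs with the codon through the anticodon, the triplet at the tip of its middle loop. An A in the first anticodon position is edited to inosine in cells, which lets SerAGA, ThrAGT and ProAGG read more than 1 codon, and serine tRNAs carry a long variable arm that seryl-tRNA synthetase recognises. Mammalian genomes hold many copies of each tRNA with the same or nearly the same sequence, and small RNA libraries capture both whole tRNAs and fragments of them, including pieces cut at the anticodon under stress. Which of these a read came from was not analysed here.

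The sequences are shown first because copies of different anticodons, and in 3 cases of different amino acids, are nearly alike. All 87 anticodons were found by script in the sequences that the table lists. The table lists 70 distinct sequences, and 49 remain once the base at each end is left out. With those bases left out, 86 of the 87 copies pair at 7 of 7 positions between the ends of the acceptor stem, against 24 copies with the listed ends kept, so the end bases are treated here as flanking. Coordinates are as listed, the sources used here give no genome build, and each of the 87 sequences is 1 base longer than its listed interval. The build is not GRCm38, since miR-210-3p is listed at chr7:148407305-148407328 and lies at chr7:141221407-141221428 in that assembly, so the copies were not placed relative to other genes and their strand is not stated. Each is written 5′ to 3′ in the sense of the tRNA, with the anticodon in capitals.

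Glycine copies are shown for how far the first bases, read from the tRNA's 5′ end, are shared between anticodons. They lie at chr13:21802448-21802519, chr3:96115176-96115247, chr3:96227955-96228026, chr3:96186833-96186904 and chr1:173010078-173010150.
chr13.tRNA77-GlyGCC: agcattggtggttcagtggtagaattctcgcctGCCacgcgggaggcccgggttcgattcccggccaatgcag
chr3.tRNA282-GlyCCC: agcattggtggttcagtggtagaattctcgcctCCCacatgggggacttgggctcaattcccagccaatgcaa
chr3.tRNA752-GlyCCC: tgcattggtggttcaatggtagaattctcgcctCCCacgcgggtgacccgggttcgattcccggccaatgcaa
chr3.tRNA287-GlyCCC: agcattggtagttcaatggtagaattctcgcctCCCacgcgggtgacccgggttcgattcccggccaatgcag
chr1.tRNA995-GlyTCC: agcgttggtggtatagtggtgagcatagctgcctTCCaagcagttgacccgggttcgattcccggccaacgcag

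SerAGA copies are shown for a large difference in level between copies of the same or nearly the same sequence. They lie at chr13:22011083-22011165, chr11:68850978-68851060 and chr13:22028962-22029044.
chr13.tRNA86-SerAGA: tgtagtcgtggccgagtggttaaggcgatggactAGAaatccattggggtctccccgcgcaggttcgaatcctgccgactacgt
chr11.tRNA394-SerAGA: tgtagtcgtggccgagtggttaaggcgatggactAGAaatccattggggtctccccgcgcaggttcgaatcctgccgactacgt
chr13.tRNA980-SerAGA: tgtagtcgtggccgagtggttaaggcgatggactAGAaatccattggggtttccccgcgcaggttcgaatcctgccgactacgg

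Each of 3 copies is shown above the tRNA of another amino acid that its sequence is closest to. The pairs lie at chr11:48637229-48637303 and chr3:30500191-30500264, at chr11:100399471-100399544 and chr13:21253273-21253346, and at chr1:78294369-78294441 and chr16:3012008-3012080.
chr11.tRNA205-GlyACC: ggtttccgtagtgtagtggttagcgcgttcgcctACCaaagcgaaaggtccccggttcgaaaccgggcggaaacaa
chr3.tRNA48-ValAAC: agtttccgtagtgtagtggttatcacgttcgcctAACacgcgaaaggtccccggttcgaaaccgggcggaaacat
chr11.tRNA832-SerGGA: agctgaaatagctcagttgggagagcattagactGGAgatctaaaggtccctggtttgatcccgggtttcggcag
chr13.tRNA60-PheGAA: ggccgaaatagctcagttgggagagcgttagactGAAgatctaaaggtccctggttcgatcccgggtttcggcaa
chr1.tRNA284-ProAGG: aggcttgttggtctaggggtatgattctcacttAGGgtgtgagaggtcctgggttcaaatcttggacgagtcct
chr16.tRNA829-LeuAAG: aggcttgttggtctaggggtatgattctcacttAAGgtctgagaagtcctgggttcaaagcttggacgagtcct

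Proline copies are shown because the most abundant copies of its 3 anticodons are identical outside the anticodon, and ThrCGT copies because that anticodon is carried by a short and a long form. They lie at chr7:105964185-105964257, chr11:68853886-68853958, chr17:23683442-23683514, chr11:79518151-79518223 and chr13:21356448-21356522.
chr7.tRNA977-ProAGG: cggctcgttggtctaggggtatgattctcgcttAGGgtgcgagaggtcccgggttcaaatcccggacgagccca
chr11.tRNA396-ProCGG: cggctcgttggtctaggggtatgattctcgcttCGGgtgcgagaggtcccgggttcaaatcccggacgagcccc
chr17.tRNA996-ProTGG: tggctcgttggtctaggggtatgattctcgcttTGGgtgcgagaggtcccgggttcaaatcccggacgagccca
chr11.tRNA550-ThrCGT: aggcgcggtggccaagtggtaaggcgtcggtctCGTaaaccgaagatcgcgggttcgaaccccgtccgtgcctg
chr13.tRNA72-ThrCGT: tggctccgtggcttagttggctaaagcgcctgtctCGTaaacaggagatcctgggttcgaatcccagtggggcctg

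Glycine tRNAs held most of the reads of the 87 copies. The 29 glycine copies summed to 141011 and 115705 normalized reads in KO hypoxia, 150318 and 207855 in KO normoxia, 112413 and 113186 in WT hypoxia, and 97895 and 180357 in WT normoxia. The 23 serine copies summed to 34296 and 24867 in KO hypoxia, 28683 and 20039 in KO normoxia, 26672 and 26594 in WT hypoxia, and 35159 and 31296 in WT normoxia. Serine was thus below glycine in each of the 8 libraries, and proline and threonine were lower again. The 18 proline copies summed to between 7521 and 12665 and the 17 threonine copies to between 4712 and 5921. Together the 87 copies made up 1.27% to 2.34% of all normalized reads and 18.1% to 25.6% of the genomic tRNA reads. The sources used here do not give how reads matching several copies were counted, so these sums may count 1 read more than once, and fewer cells and less RNA per cell cannot be told apart in bulk samples.

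**Figure D1:**
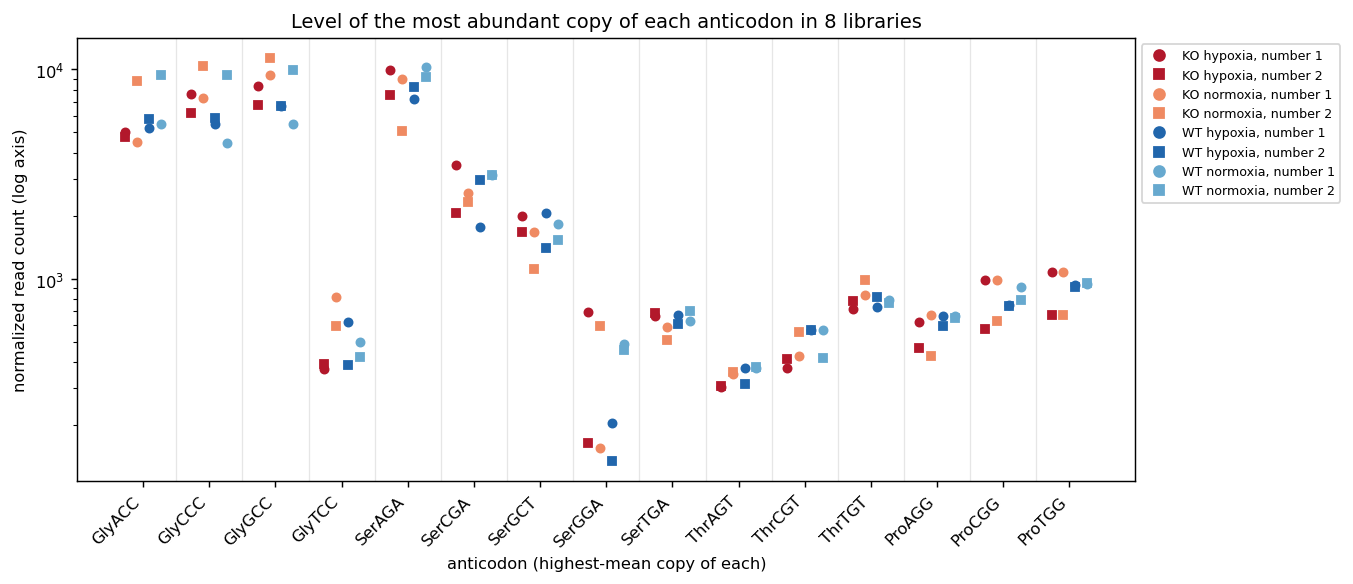
Normalized read count (vertical log axis) of the copy with the highest mean for each of the 15 anticodons, with 1 point per library, coloured by group and shaped by library number. The GlyACC, GlyCCC, GlyGCC and SerAGA copies lie between 4463 and 11305, above those of the other 11 anticodons in every library.

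Levels per copy gave a different order from the sums. Ranked by the mean over 8 libraries of the most abundant copy, SerAGA came first (chr13.tRNA86-SerAGA, 8288), then GlyGCC (chr13.tRNA77-GlyGCC, 8062), GlyCCC (chr3.tRNA282-GlyCCC, 7085) and GlyACC (chr11.tRNA205-GlyACC, 6107). The ranges of these 4 over libraries overlapped, so their order is not separated from the spread. SerCGA (chr10.tRNA688-SerCGA, mean 2676, range 1770 to 3504) and SerGCT (chr2.tRNA1509-SerGCT, mean 1656, range 1110 to 2050) followed, below those 4 in every library and overlapping each other. The other 9 anticodons had lower means, with ranges that overlapped between neighbours in the order. These were ProTGG (chr17.tRNA996-ProTGG, 904), ThrTGT (chr14.tRNA704-ThrTGT, 802.5), ProCGG (chr11.tRNA396-ProCGG, 794), SerTGA (chr10.tRNA1095-SerTGA, 631), ProAGG (chr7.tRNA977-ProAGG, 595), GlyTCC (chr1.tRNA1004-GlyTCC, 512), ThrCGT (chr13.tRNA72-ThrCGT, 487), SerGGA (chr11.tRNA832-SerGGA, 361) and ThrAGT (chr13.tRNA104-ThrAGT, 345). A read stands for 1 molecule or fragment, so levels are not divided by length. Listed lengths differ by at most 1.15-fold between copies.

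Among the glycine tRNAs, GlyTCC copies were far below those of the other anticodons. Means of GlyCCC copies overlapped those of GlyGCC copies and spanned that of the 1 GlyACC copy (6107). The 14 GlyGCC copies, which read GGC and GGU codons, averaged 7033 to 8062 each. The 7 GlyCCC copies, which read GGG, averaged 1517 to 7085, and the 7 GlyTCC copies, which read GGA, averaged 396 to 512. The most abundant glycine copy, chr13.tRNA77-GlyGCC, had 8281 and 6753 normalized reads in KO hypoxia, 9403 and 11305 in KO normoxia, 6667 and 6646 in WT hypoxia, and 5505 and 9936 in WT normoxia. Library 2 of KO normoxia and library 2 of WT normoxia were the highest, and KO and WT overlapped in normoxia.

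Within GlyCCC the levels went with the first bases shared with chr13.tRNA77-GlyGCC. chr3.tRNA282-GlyCCC shares its first 32 bases, that is all bases up to the anticodon, and stood at 0.779 to 0.943 of that copy over the 8 libraries. chr3.tRNA752-GlyCCC and chr4.tRNA67-GlyCCC share 14 bases and stood at 0.407 to 0.507. chr3.tRNA287-GlyCCC and chr3.tRNA755-GlyCCC share 8 bases and stood at 0.126 to 0.305. The order was not complete, since chr17.tRNA113-GlyCCC and chr6.tRNA317-GlyCCC share 2 bases and stood at 0.364 to 0.681. Neither was it complete within GlyGCC, where the 3 copies chr1.tRNA702-GlyGCC, chr1.tRNA704-GlyGCC and chr1.tRNA706-GlyGCC share 4 bases and stood at 0.768 to 1.34. The 8 GlyGCC copies with one sequence averaged 7198 to 8062, within 1.12-fold of each other. All of this is a description of 1 table in which copies may share reads.

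Copies of the same sequence usually had nearly the same level. Leaving out the end bases, 51 copies fall into 13 groups of identical sequence, and in 10 of those groups the means of the highest and lowest copy were within 1.5-fold. With the end bases kept, 31 copies fall into 14 groups, of which 13 were within 1.5-fold. The closest were chr17.tRNA113-GlyCCC and chr6.tRNA317-GlyCCC, with means of 4352 each. The groups past 1.5-fold without end bases were SerAGA, ThrAGT (chr11.tRNA395-ThrAGT at 274 and chr7.tRNA1213-ThrAGT at 109.6) and ThrTGT (chr14.tRNA704-ThrTGT at 802.5 and chr11.tRNA206-ThrTGT at 524).

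SerAGA, which with inosine reads several UCN codons, was the exception among whole listed sequences. chr13.tRNA86-SerAGA had 9872 and 7568 normalized reads in KO hypoxia, 8963 and 5048 in KO normoxia, 7181 and 8241 in WT hypoxia, and 10243 and 9188 in WT normoxia. The 84 listed bases of chr11.tRNA394-SerAGA are the same, flanking bases included, but its mean was 380, and chr13.tRNA86-SerAGA was 13.2 to 31.1 times as high in each library. No library reversed that order. Reads that lie within the listed sequence cannot tell these 2 copies apart, and the sources used here do not give how such reads were assigned. Whether the 2 genes differ in expression was therefore not tested. chr13.tRNA980-SerAGA, which differs from chr13.tRNA86-SerAGA at 1 of the 82 bases between the ends, had 8437 and 5719 in KO hypoxia, 6892 and 4264 in KO normoxia, 5087 and 6770 in WT hypoxia, and 8627 and 7845 in WT normoxia. It stayed close to chr13.tRNA86-SerAGA, which was 1.17 to 1.41 times as high. These 2 copies held 81.5% to 92.1% of the SerAGA sum, and the 5 other copies with the sequence of chr13.tRNA86-SerAGA had 187 to 723 in any library. chr13.tRNA86-SerAGA took between 0.0489% of all normalized reads (KO normoxia library 2, 95% exact binomial interval 0.0476% to 0.0503%) and 0.104% (WT normoxia library 1, 0.102% to 0.106%). These intervals treat normalized reads as counts and cover counting error only. The last SerAGA copy, chrX.tRNA493-SerAGA, had 2 to 11 reads and is the 1 copy left out of the tests by the filter on low values.

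**Figure D2:**
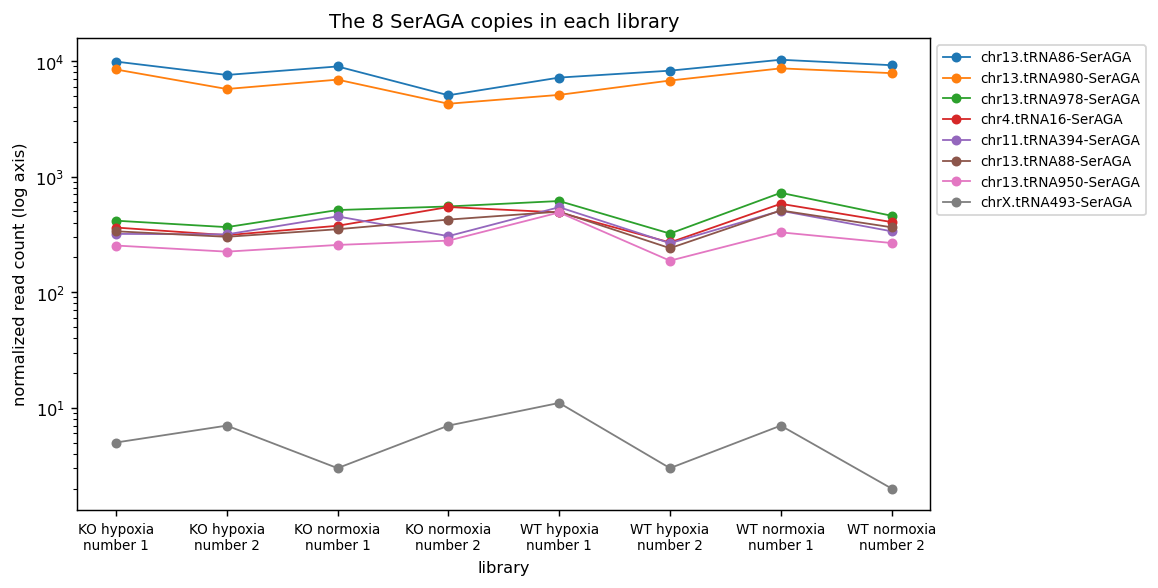
Normalized read count (vertical log axis) of the 8 SerAGA copies in each library (horizontal axis), with 1 line per copy. chr13.tRNA86-SerAGA and chr13.tRNA980-SerAGA lie between 4264 and 10243, 5 copies with the sequence of chr13.tRNA86-SerAGA lie between 187 and 723, and chrX.tRNA493-SerAGA lies between 2 and 11.

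Of the 87 copies, 3 were closer in sequence to a tRNA for another amino acid than to any other tRNA for their own. chr11.tRNA205-GlyACC, the 1 copy with this glycine anticodon, differs from chr3.tRNA48-ValAAC, a valine tRNA, by 5 of its 74 bases and from the nearest glycine copy, chr13.tRNA77-GlyGCC, by 27. Its anticodon stem pairs at 2 of 5 positions, against at least 4 in the 86 other copies. It had 4999 and 4733 normalized reads in KO hypoxia, 4500 and 8742 in KO normoxia, 5251 and 5808 in WT hypoxia, and 5481 and 9339 in WT normoxia. chr3.tRNA48-ValAAC had nearly the same values, with 4901 and 4341 in KO hypoxia, 4388 and 8240 in KO normoxia, 4986 and 5548 in WT hypoxia, and 5278 and 8923 in WT normoxia. GlyACC was thus at 102% to 109% of the valine copy in every library and at 47.9% to 99.6% of chr13.tRNA77-GlyGCC.

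chr11.tRNA832-SerGGA differs from chr13.tRNA60-PheGAA, a phenylalanine tRNA, at 4 positions and from the nearest serine copy, chr11.tRNA400-SerCGA, at 35. At 75 listed bases it lacks the long variable arm of the 22 other serine copies, which have 84. It had 691 and 164 normalized reads in KO hypoxia, 155 and 595 in KO normoxia, 204 and 135 in WT hypoxia, and 488 and 458 in WT normoxia. The highest over the lowest library was 5.12, more than for any other copy that was tested. KO hypoxia library 1 and KO normoxia library 2 were high and the other library of each group was low, and chr13.tRNA60-PheGAA did the same, with 2263 and 469 in KO hypoxia, 573 and 1676 in KO normoxia, 657 and 508 in WT hypoxia, and 1355 and 1601 in WT normoxia. SerGGA stood at 26.6% to 36.0% of the phenylalanine copy and at 7.57% to 58.2% of chr11.tRNA400-SerCGA.

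chr1.tRNA284-ProAGG differs from chr16.tRNA829-LeuAAG, a leucine-named copy, at 4 positions and from the nearest proline copy, chr7.tRNA977-ProAGG, at 7. It had 183 and 108 normalized reads in KO hypoxia, 257 and 136 in KO normoxia, 139 and 148 in WT hypoxia, and 204 and 196 in WT normoxia. Those values were 100% to 101% of the leucine-named copy and 21.0% to 38.2% of chr7.tRNA977-ProAGG. In each of the 3 pairs the level was thus a narrower range of percentages of the copy closest in sequence than of the copy for the same amino acid.

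**Figure D3:**
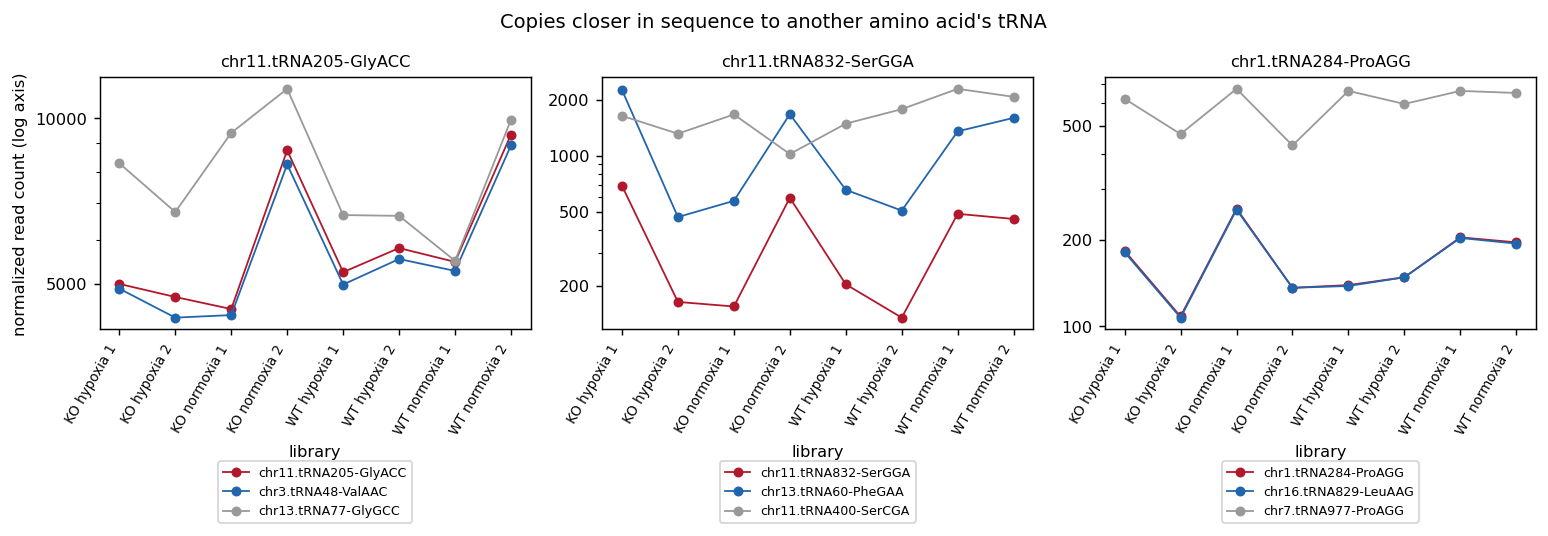
Normalized read count (vertical log axis) per library for the 3 copies closest in sequence to another amino acid's tRNA (red), that tRNA (blue) and the nearest tRNA for the same amino acid (grey). The red and blue lines run together, at 102% to 109% for GlyACC and valine, 26.6% to 36.0% for SerGGA and phenylalanine, and 100% to 101% for ProAGG and the leucine-named copy.

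Proline tRNAs differ little between anticodons in sequence. Of the 18 copies, 13 are identical outside the anticodon, among them the most abundant copies for AGG, CGG and TGG. chr17.tRNA996-ProTGG, which reads CCA, had 1073 and 667 normalized reads in KO hypoxia, 1075 and 670 in KO normoxia, 933 and 912 in WT hypoxia, and 946 and 957 in WT normoxia. chr11.tRNA396-ProCGG, which reads CCG, had 982 and 575 in KO hypoxia, 983 and 625 in KO normoxia, 749 and 738 in WT hypoxia, and 908 and 790 in WT normoxia. chr7.tRNA977-ProAGG, the inosine form, had 621 and 468 in KO hypoxia, 673 and 427 in KO normoxia, 662 and 596 in WT hypoxia, and 662 and 651 in WT normoxia. All 3 were higher in library 1 than in library 2 in both KO groups, and the KO libraries lay on both sides of the WT libraries for the CGG and TGG copies.

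Threonine tRNAs were the lowest of the 4 amino acids in summed reads. chr13.tRNA104-ThrAGT, the inosine form, had 304 and 306 normalized reads in KO hypoxia, 349 and 358 in KO normoxia, 374 and 314 in WT hypoxia, and 374 and 378 in WT normoxia. Its highest library was 1.24 times its lowest, the smallest such ratio of the 87 copies. chr14.tRNA704-ThrTGT, which reads ACA, had 716 and 780 in KO hypoxia, 838 and 990 in KO normoxia, 728 and 817 in WT hypoxia, and 790 and 761 in WT normoxia. ThrCGT, which reads ACG, was less steady. Its 4 copies are 2 of 74 and 2 of 76 listed bases, with 18 to 20 differences between a short and a long copy. The short copy chr11.tRNA550-ThrCGT had 648 and 377 in KO hypoxia, 292 and 632 in KO normoxia, 151 and 321 in WT hypoxia, and 196 and 289 in WT normoxia. The other short copy, chr16.tRNA50-ThrCGT, differs from it at 1 base and had 478 and 447 in KO hypoxia, 235 and 653 in KO normoxia, 206 and 365 in WT hypoxia, and 184 and 311 in WT normoxia. The long copy chr13.tRNA72-ThrCGT had 375 and 415 in KO hypoxia, 427 and 554 in KO normoxia, 571 and 569 in WT hypoxia, and 569 and 416 in WT normoxia. The long copy chr13.tRNA72-ThrCGT thus differed from both short copies in which library was highest. The other long copy, chr13.tRNA75-ThrCGT, was highest in KO normoxia library 2 (256), as was the short copy chr16.tRNA50-ThrCGT (653). KO hypoxia library 1 was the highest of the 8 for chr11.tRNA550-ThrCGT and the lowest for chr13.tRNA72-ThrCGT.

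Differences between groups were tested for the 86 copies that reached 10 normalized reads in at least 2 libraries. The fit was limma on log2(value + 1) across all 1540 features that reached this level, and p-values were adjusted over those by Benjamini-Hochberg. No copy passed an adjusted p of 0.05 in any of the 7 comparisons. Replicate libraries were far apart. In KO normoxia, 38 of the 86 copies (44.2%) differed more than 1.5-fold between the 2 libraries, against 40.4% of all features, and the shares were 23.3% (20 copies) in KO hypoxia, against 32.5% of all features, 26.7% (23) in WT hypoxia, against 30.5%, and 27.9% (24) in WT normoxia, against 27.5%. Log2 differences below are the first-named group minus the second, on the log2(value + 1) scale. Copies of like sequence may share reads, so counts of copies below are not counts of separate observations. Lack of overlap between groups is given below only to describe the printed values. The share of all features without overlap was not counted.

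In KO cells, 0 of 86 copies passed between hypoxia and normoxia, as did 0 of all 1540 features (0%). At an unadjusted p under 0.05 there were 9 copies, all lower in hypoxia, against 5.39% of all features in either direction and 2.92% lower. Among the 327 other genomic tRNAs 27 met the same limit, also all lower. The 9 copies were the 7 GlyTCC copies, 1 ThrAGT copy and 1 ThrCGT copy. Without KO hypoxia library 1 the number of copies was 0, and without any other single library it was 6 to 10. The 7 GlyTCC copies have 1 sequence between their ends and may share reads, so they are not 7 separate observations. chr1.tRNA995-GlyTCC, the one with the smallest p, had 272 and 308 normalized reads in KO hypoxia, against 645 and 453 in KO normoxia, a log2 difference of -0.90 (SE 0.31, unadjusted p = 0.0156, limma adjusted p = 0.804). The groups did not overlap. The long copy chr13.tRNA75-ThrCGT had 87 and 142 in KO hypoxia, against 169 and 256 in KO normoxia, a log2 difference of -0.90 (SE 0.36, limma adjusted p = 0.804). chr13.tRNA971-ThrAGT had 31 and 44 in KO hypoxia, against 53 and 110 in KO normoxia, a log2 difference of -1.03 (SE 0.45, limma adjusted p = 0.804).

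The amino acids differed in the sign of these untested medians. Of all features tested, 52.3% were higher in KO hypoxia than in KO normoxia. In KO cells the median log2 difference between hypoxia and normoxia was -0.40 for glycine (0 of 29 copies higher), 0.33 for serine (15 of 22), -0.21 for threonine (6 of 17) and -0.10 for proline (5 of 18). It was -0.25 over the 86 copies, against 0.02 over all features tested and -0.14 over the 327 other genomic tRNAs tested. The glycine, serine and threonine medians kept their sign under 3 other scalings and without each single library. Proline's turned positive without KO hypoxia library 2 or without KO normoxia library 1. Within serine, the 8 SerGCT copies, which read AGC and AGU, were all higher in hypoxia, with a median of 0.59, while 5 of 7 SerAGA copies were lower, with a median of -0.23. Those 5 are the low copies that share 1 sequence. The 2 copies that hold most SerAGA reads, chr13.tRNA86-SerAGA and chr13.tRNA980-SerAGA, each differed by 0.36, and their groups overlapped. The SerAGA sum was 19999 and 14811 in KO hypoxia, against 17804 and 11423 in KO normoxia. chr2.tRNA1509-SerGCT had 1991 and 1673 in KO hypoxia, against 1667 and 1110 in KO normoxia. The lower KO hypoxia library was 1673 and the higher KO normoxia library 1667, so the groups only just did not overlap.

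In WT cells, 0 of 86 copies passed between hypoxia and normoxia, as did 0% of all features, and 0 copies had an unadjusted p under 0.05, against 1.3% of all features. That number was 1 without any 1 of the 4 KO libraries. The smallest p was for chr11.tRNA832-SerGGA, with 204 and 135 normalized reads in WT hypoxia, against 488 and 458 in WT normoxia. Its log2 difference was -1.50 (SE 0.71, unadjusted p = 0.0602, limma adjusted p = 1). Next came chr13.tRNA980-SerAGA, with 5087 and 6770 in WT hypoxia, against 8627 and 7845 in WT normoxia (-0.49, SE 0.33), and chr11.tRNA400-SerCGA, with 1490 and 1783, against 2293 and 2077 (-0.42, SE 0.31). These 3 did not overlap between groups, which picking by the smallest p favours. The share over all features was not counted, so no result is read from this. The median over the 86 copies was -0.19, against 0.02 over all features and 0.14 over the other genomic tRNAs. By amino acid it was -0.20 for glycine, -0.20 for serine, 0.02 for threonine and -0.19 for proline. Glycine's turned positive (0.18) without WT normoxia library 2, serine's (0.11) without WT hypoxia library 2, and threonine's turned negative under TMM and microRNA scaling and without WT hypoxia library 1.

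**Figure D4:**
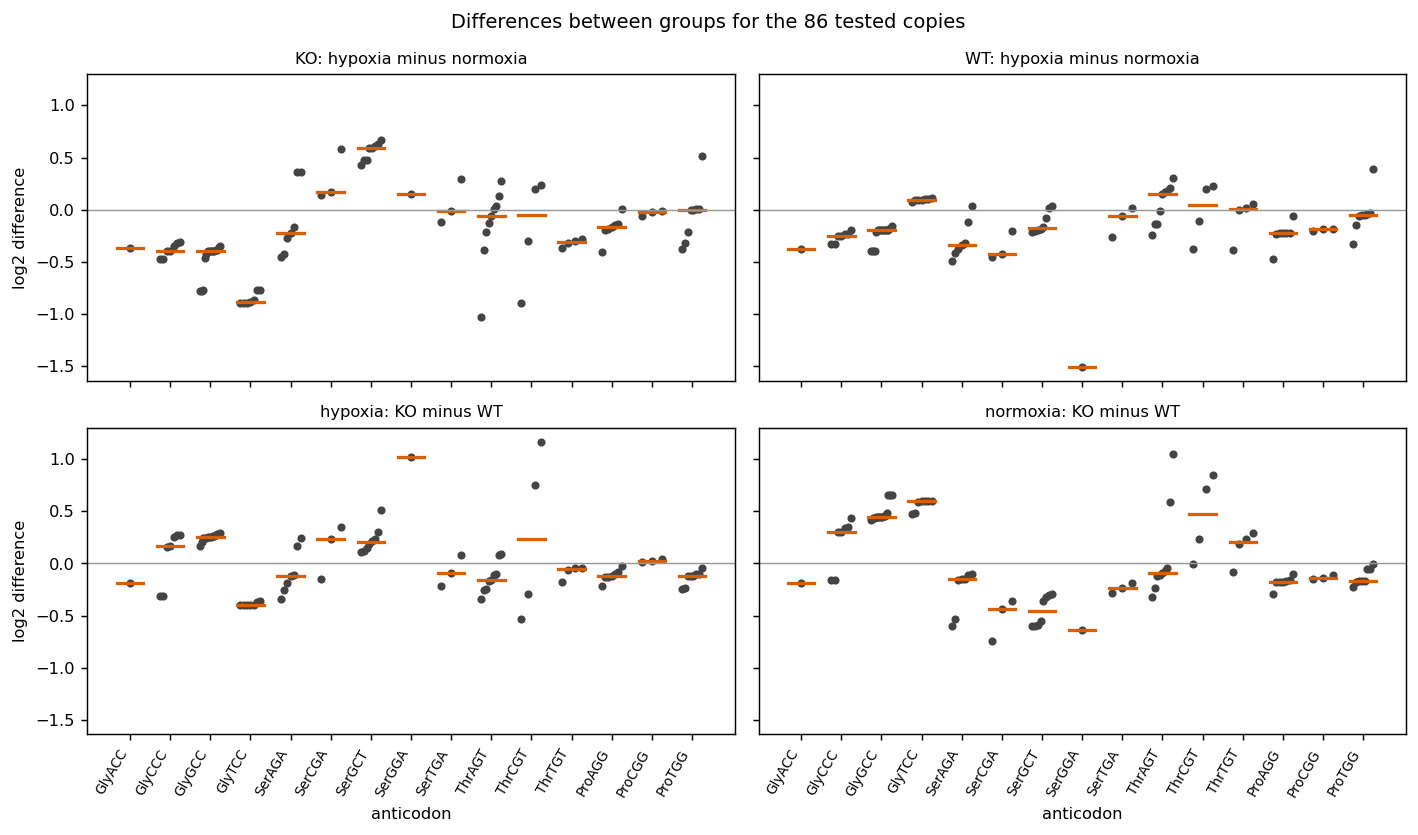
Log2 difference between groups (vertical axes) for each of the 86 tested copies, by anticodon (horizontal axes), with 1 point per copy and a bar at the median. The panels are KO hypoxia minus KO normoxia, WT hypoxia minus WT normoxia, KO minus WT in hypoxia and KO minus WT in normoxia. The GlyTCC median was -0.88 in the first panel and 0.10 in the second, and no copy passed an adjusted p of 0.05 in any panel.

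The difference between those hypoxia differences was itself fitted. For the hypoxia difference in KO minus that in WT, 0 of 86 copies passed (0% of all features), and 3 copies had an unadjusted p under 0.05, all GlyTCC and all negative, against 2.4% of all features in either direction and 1.49% negative. Among the other genomic tRNAs 14 of 327 met it, also all negative. The number of copies was 0 without KO hypoxia library 1, WT hypoxia library 1 or either WT normoxia library and under quantile or microRNA scaling, and at most 8 without any 1 library. chr1.tRNA995-GlyTCC had 459 and 318 normalized reads in WT hypoxia, against 376 and 339 in WT normoxia, which overlap. Its difference of differences was -0.996 (SE 0.43, unadjusted p = 0.0454, limma adjusted p = 0.9996). chr1.tRNA791-SerGCT had 345 and 236 in KO hypoxia, against 202 and 159 in KO normoxia, and 223 and 179 in WT hypoxia, against 211 and 239 in WT normoxia, a difference of differences of 0.84 (SE 0.44). For chr13.tRNA971-ThrAGT the value was -1.20 (SE 0.64). The median was -0.97 for GlyTCC and 0.73 for SerGCT, with the same sign in every scaling and without each single library. Over the 86 copies it was -0.07, against 0.02 over all features and -0.33 over the 327 other genomic tRNAs, of which 257 were negative. Among the other tRNAs, the medians for Asn (-1.24), Trp (-1.19) and Cys (-0.76) were the most negative. Those for Phe (1.43), Leu (0.11), Tyr (0.04) and Glu (0.01) were positive, and the rest were negative. The -0.07 turned positive on leaving out any 1 of 5 libraries, at most to 0.09 without KO hypoxia library 2, and lay between 0.003 and 0.07 without KO normoxia library 1, WT hypoxia library 1 or either WT normoxia library.

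Between genotypes in hypoxia, 0 of 86 copies passed, against 2 of 1540 features (0.13%), and 1 copy had an unadjusted p under 0.05, against 9.03% of all features. Without KO hypoxia library 1 or WT hypoxia library 1 there was no such copy, and without library 2 of either group there were 2. The copy was chr11.tRNA550-ThrCGT, with 648 and 377 normalized reads in KO hypoxia, against 151 and 321 in WT hypoxia, a log2 difference of 1.16 (SE 0.49, unadjusted p = 0.0390, limma adjusted p = 0.545). For this copy every KO hypoxia library was above both WT hypoxia libraries. Of the 4 ThrCGT copies, 2 were higher in KO and 2 lower. Among the lower was the long copy chr13.tRNA72-ThrCGT, with 375 and 415 in KO hypoxia, against 571 and 569 in WT hypoxia. With copies summed by anticodon the ThrCGT difference was 0.28. chr1.tRNA791-SerGCT had 345 and 236 in KO hypoxia, against 223 and 179 in WT hypoxia (0.51, SE 0.31), also without overlap. chr11.tRNA832-SerGGA had 691 and 164 in KO hypoxia, against 204 and 135 in WT hypoxia (1.02, SE 0.71, limma adjusted p = 0.902), which overlap. Without KO hypoxia library 1, the library with the high ribosomal RNA share, its difference was -0.02. The part of that share in the result was not tested. In this comparison 45.5% of all features were higher in KO. By amino acid the median was 0.24 for glycine (19 of 29 copies higher in KO), 0.14 for serine (14 of 22), -0.11 for threonine (4 of 17) and -0.11 for proline (3 of 18). Threonine's and proline's turned positive (0.04 each) with libraries scaled to their microRNA totals, and threonine's also did without WT hypoxia library 1 (0.02) and proline's without KO hypoxia library 2 (0.22). Serine's turned negative without KO hypoxia library 1 or without WT hypoxia library 2. Over the 86 copies it was -0.05, against -0.04 over all features and 0.11 over the other genomic tRNAs, and it turned positive under microRNA scaling (0.11) and without KO hypoxia library 2 (0.22) or WT hypoxia library 1 (0.14).

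Between genotypes in normoxia, 0 of 86 copies passed, against 1 of 1540 features (0.0649%), and 2 copies had an unadjusted p under 0.05, against 13.4% of all features. The number was 0 without WT normoxia library 1, 17 without WT normoxia library 2, 12 without KO normoxia library 1 and 4 without KO normoxia library 2, and 1 without either WT hypoxia library. chr11.tRNA400-SerCGA had 1670 and 1023 normalized reads in KO normoxia, against 2293 and 2077 in WT normoxia, a log2 difference of -0.74 (SE 0.31, unadjusted p = 0.0372, limma adjusted p = 0.331). chr13.tRNA971-ThrAGT had 53 and 110 in KO normoxia, against 37 and 36 in WT normoxia (1.05, SE 0.45, unadjusted p = 0.0439, limma adjusted p = 0.351). chr1.tRNA995-GlyTCC had 645 and 453 in KO normoxia, against 376 and 339 in WT normoxia (0.60, SE 0.31, limma adjusted p = 0.437). None of these 3 overlapped between groups, which picking by the smallest p favours. The share over all features was not counted, so no result is read from this. Of the 29 glycine copies 26 were higher in KO, with a median of 0.45, and 0 of 22 serine and 0 of 18 proline copies were, with medians of -0.34 and -0.17. Over all features 45.6% were higher in KO, and among the 327 other genomic tRNAs 273 were (83.5%). Of those 327, 79 had an unadjusted p under 0.05, all higher in KO. Copies that share reads are not separate observations. Proline's median was 0.07 with libraries scaled to their microRNA totals and turned positive without KO normoxia library 2, and glycine's was -0.05 without WT normoxia library 1. Over the 86 copies the median was -0.10, against -0.06 over all features and 0.42 over the other genomic tRNAs, and it turned positive under microRNA scaling (0.14) and without KO normoxia library 2 (0.19).

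**Figure D5:**
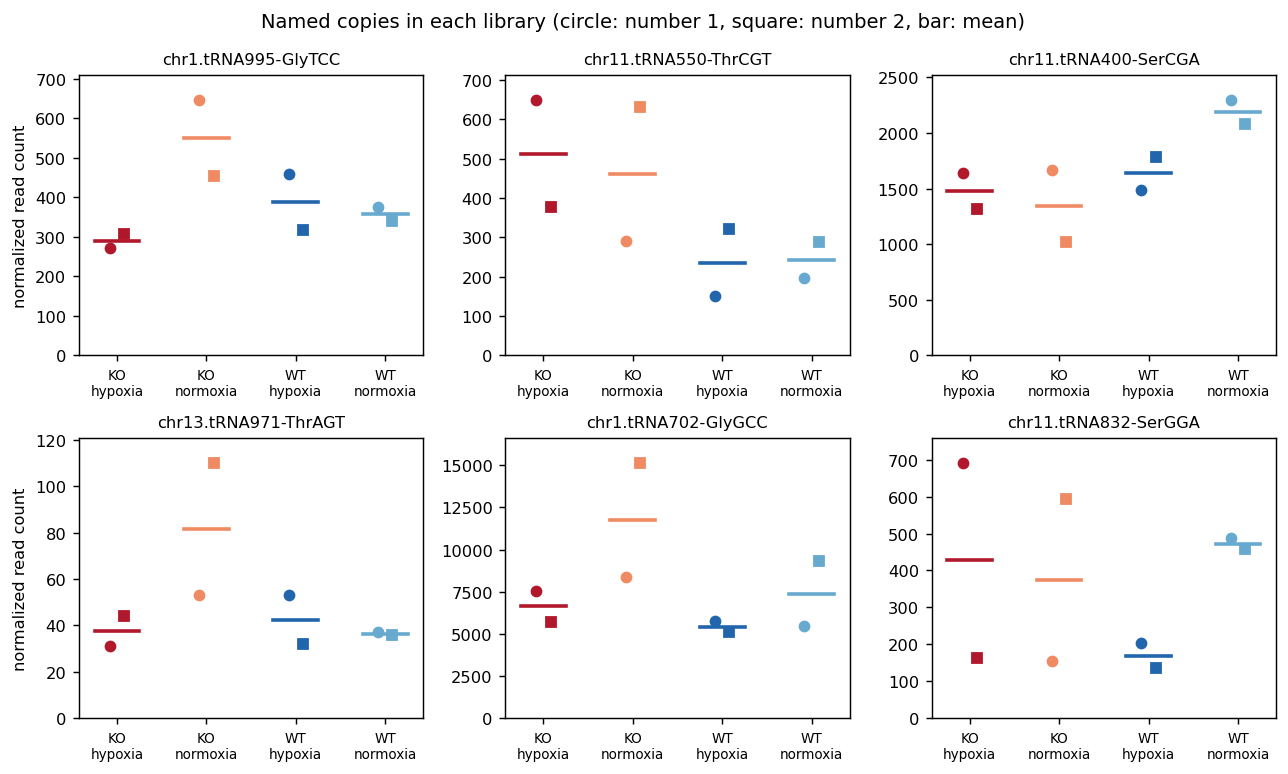
Normalized read count (vertical axes, from 0) of 6 copies named in the comparisons, with 1 point per library (circle for library 1, square for library 2) and a bar at the group mean, for KO hypoxia, KO normoxia, WT hypoxia and WT normoxia. For chr1.tRNA995-GlyTCC the KO hypoxia libraries (272 and 308) lie below the KO normoxia libraries (645 and 453), and for chr11.tRNA832-SerGGA the 2 libraries of each KO group lie far apart (691 and 164, 155 and 595).

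Averaged over both oxygen levels, 0 of 86 copies passed between KO and WT, against 2 of 1540 features (0.13%), and 1 copy had an unadjusted p under 0.05, against 17.8% of all features. It ranged from 0, without library 1 of KO hypoxia, WT hypoxia or WT normoxia or library 2 of KO normoxia, to 19, without library 2 of WT normoxia. It was 7 without KO normoxia library 1 and 3 without WT hypoxia library 2. The copy was again chr11.tRNA550-ThrCGT, with a log2 difference of 1.01 (SE 0.34, unadjusted p = 0.0158, limma adjusted p = 0.168). With libraries scaled to their microRNA totals this copy alone of the 86 passed (1.20, SE 0.33, limma adjusted p = 0.0436), among 85 of all 1540 features, and over all alternatives its adjusted p lay between 0.0436 and 0.675. With copies summed by anticodon the ThrCGT difference was 0.34, and of the 4 ThrCGT copies 2 were higher in KO and 2 lower. chr11.tRNA400-SerCGA differed by -0.44 (SE 0.22) and chr1.tRNA702-GlyGCC by 0.47 (SE 0.26), neither past an unadjusted p of 0.05. Here 43.2% of all features were higher in KO. By amino acid the median was 0.32 for glycine (26 of 29 copies higher in KO, and positive under 3 other scalings and without each single library), -0.16 for serine, -0.03 for threonine and -0.14 for proline. Those last 3 medians turned positive, to 0.04, 0.17 and 0.06, with libraries scaled to their microRNA totals, and threonine's also did under TMM scaling. Single libraries turned them too. Serine's was positive without WT hypoxia library 1, threonine's without that library or without KO normoxia library 2, and proline's without library 2 of either KO group. The median over the 86 copies was -0.06, as it was over all features, against 0.23 over the other genomic tRNAs, and it turned positive under microRNA scaling (0.14) and without WT hypoxia library 1 (0.07), KO normoxia library 2 (0.05) or KO hypoxia library 2 (0.03).

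Averaged over both genotypes, 0 of 86 copies passed between hypoxia and normoxia, as did 0% of all features, and 4 copies had an unadjusted p under 0.05, all lower in hypoxia, against 3.57% of all features in either direction and 1.23% lower. Among the other genomic tRNAs 17 of 327 met it, 3 of them lower. The number of copies ranged from 0, without library 2 of WT hypoxia or of WT normoxia, to 18, without library 1 of WT normoxia. It was 1 without KO hypoxia library 2 and 8 without WT hypoxia library 1. With all libraries in, the 4 copies were 1 ThrCGT copy and the 3 chromosome 1 copies of GlyGCC that share a sequence. chr13.tRNA75-ThrCGT differed by -0.64 (SE 0.25, limma adjusted p = 0.975). chr1.tRNA702-GlyGCC had 7557 and 5703 normalized reads in KO hypoxia, against 8351 and 15135 in KO normoxia, and 5744 and 5102 in WT hypoxia, against 5474 and 9308 in WT normoxia, a mean difference of -0.59 (SE 0.26, limma adjusted p = 0.975). It did not overlap in KO and overlapped in WT. chr11.tRNA1824-GlyTCC differed by -0.41 (SE 0.22). Of all features 54.6% were higher in hypoxia. All 29 glycine copies had a negative value here, with a median of -0.32, and glycine's median stayed negative under 3 other scalings and without each single library. The median over the 86 copies was -0.19, against 0.03 over all features and -0.06 over the other genomic tRNAs.

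The scaling of the libraries bears on the genotype comparisons. With each library scaled to its microRNA total, the median log2 difference of all features moved by 0.23 between KO and WT in normoxia, by 0.15 in hypoxia, by 0.19 over both, and by -0.14 between hypoxia and normoxia in KO cells. The share of copies higher in KO was then 79.1% in normoxia instead of 39.5%, 70.9% in hypoxia instead of 46.5%, and 87.2% over both instead of 41.9%. For the difference of differences the share above 0 was 29.1% instead of 46.5%. Relative to the median of all features the copies could hardly move, because this scaling multiplies all values of a library by the same factor. In normoxia the median copy lay at -0.03 against that median under either scaling, with 39 of 86 copies above it under both. These values therefore do not test whether the result depends on the scaling.

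The tRNAs for the same amino acids that mitochondria encode for their own translation were also measured. mt-Tg, for glycine, had 3687 and 7678 normalized reads in KO hypoxia, 8968 and 12220 in KO normoxia, 6755 and 7935 in WT hypoxia, and 7469 and 9626 in WT normoxia. mt-Tt, for threonine, had 536 and 1713 in KO hypoxia, 2986 and 3945 in KO normoxia, 1399 and 2265 in WT hypoxia, and 1598 and 3457 in WT normoxia. Both were lower in KO hypoxia than in KO normoxia without overlap, mt-Tt by a log2 difference of -1.84 (SE 0.55, unadjusted p = 0.0077, limma adjusted p = 0.804) and mt-Tg by -0.98 (SE 0.37, unadjusted p = 0.0243, limma adjusted p = 0.804), and neither passed. The serine tRNA mt-Ts2 was the most abundant of the 5, with 47303 and 32493 in KO hypoxia, 31162 and 44648 in KO normoxia, 32998 and 26277 in WT hypoxia, and 25928 and 45156 in WT normoxia. mt-Ts1, also for serine, had 641 to 1300 and mt-Tp, for proline, had 706 to 971 over the 8 libraries. None of the 5 passed in any of the 7 comparisons.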

How the data were processed

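Small RNA was sequenced from 8 libraries of immortalized mouse skin fibroblasts in 4 groups of 2. The authors deposited 1 table with a score per feature and library, which by the name the authors gave the table is a normalized read count, here in whole numbers. The sources used here do not give the normalization method, aligner, genome build or treatment of reads matching several copies, so copies of like sequence may share reads. Values summed to 8618630 to 12167438 per library. The spacing of low values gave steps of 0.826 to 1.138 per read, that is about 7573490 to 13482300 reads. Because the values are not raw counts, no count model was used.

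Features with a value of at least 10 in at least 2 libraries (1540 of 2403, 86 of the 87 copies) were transformed to log2(value + 1) and fitted with limma 3.58.1 in R 4.3.3 on 4 group means with an intensity trend (4 residual and 5.64 prior degrees of freedom). The 7 comparisons were adjusted separately by Benjamini-Hochberg over all features. The fit was tested on simulated data for the mean genotype difference only, with independent features and larger changes than those of the copies here. That test does not bear on copies that share reads or on small differences. Sums over copies were described without a test. Sequence differences are edit distances between listed sequences without their end bases. The rule for the copies uses no measured value, but it and the marker lists were set with earlier results of these data known. Named in the text are the highest-mean copy of each anticodon, the 3 copies of smallest p in each comparison (at most 1 per anticodon), the mitochondrial tRNAs for the same amino acids and miR-210-3p. Other copies, named for their sequence or spread, were picked with their values in view. Alternatives were the pseudocount, the filter, TMM, quantile and microRNA-total scaling, no trend, a replicate block, pairwise fits, leaving out libraries and summing copies by anticodon.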

Additional observations from a re-analysis of the deposited data

How the results depend on the processing

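The number of copies past an adjusted p of 0.05 was 0 in all 7 comparisons and stayed 0 to 0 without each library in turn. It was also 0 under every other alternative run except scaling to the microRNA total, where 1 copy, chr11.tRNA550-ThrCGT, passed in the mean genotype difference. Among the recomputed differences of named copies, 4 changed sign. For chr11.tRNA832-SerGGA, KO minus WT in hypoxia was -0.017 without KO hypoxia library 1, also when KO normoxia library 2 was left out with it (a setting chosen after seeing the data). It ranged from -0.017 to 2.05 over the fits without 1 library. With copies summed by anticodon, the mean hypoxia difference in the row of chr13.tRNA75-ThrCGT was 0.012 and KO minus WT in normoxia in that of chr13.tRNA971-ThrAGT was -0.025, since each sum holds more abundant copies. With the library number as a replicate block, 0 copies passed, and 46 copy and comparison pairs had an unadjusted p under 0.05, against 20 without the block. Without 1 library at a time and with no block, those pairs numbered 7 (without KO hypoxia library 1) to 44 (without KO normoxia library 1 or WT normoxia library 2). Across all features same-numbered libraries deviated together (r = 0.151 to 0.551 over 6 pairs of groups). Across the 86 copies r ran from -0.205 (KO hypoxia with WT hypoxia) to 0.592 (WT hypoxia with WT normoxia). With 2 numbers a group and no label that ties them, same-numbered libraries were not treated as pairs. The median over the 86 copies, which has no test, changed sign in the 3 genotype comparisons and in the difference of differences, as given beside each. With copies summed by anticodon it was 0.03 for KO minus WT in hypoxia and 0.007 for the difference of differences. Without KO normoxia library 1 and KO hypoxia library 2 together it was 0.01 for KO hypoxia minus normoxia and 0.128 for the difference of differences. The medians for WT hypoxia minus normoxia and the mean hypoxia difference stayed negative in every alternative run. With 2 libraries a group the spread rests on few values, and for low copies counting error is part of it.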
